A study of Mus musculus with 27 samples.

Results

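The regions described here are the open chromatin regions of mK4 cells that the study sorted into 3 lists by comparing Runx1KO cells with control cells. They number 55649 of the 99039 ATAC-seq regions and ChIP-seq peaks in the peak lists of the series, and they were taken by list membership and mm9 coordinates alone. Of these, 8741 (15.7%) were on the list of Runx1-dependent regions, which lost accessibility in Runx1KO cells and are called closing regions here. A further 9427 (16.9%) were on the list of Runx1KO-induced regions, called opening regions, and 37481 (67.4%) were on the Runx1-independent list, called stable regions. The authors drew these lists at a 2-fold change between the genotypes, so the sizes of the classes describe that rule and are not tested here. The lists pool the replicates, and no value per ATAC-seq library was used.

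mK4 is a mouse cell line labelled as kidney metanephric mesenchyme, the embryonic kidney tissue that forms nephrons. The control was the parental line, and the Runx1KO cells were made from it by CRISPR removal of exon 3 of Runx1, which carries a start codon, followed by puromycin and picking of clones. How many clones entered each assay is not given in the sources used here, so the properties of a clone and the effect of the genotype cannot be told apart. Both kinds of cells grew in medium with 10% FBS to confluency, and ATAC-seq, in which the Tn5 transposase cuts accessible DNA, was done on 3 replicates of each. RNA-seq of 3 control and 3 Runx1KO libraries, in TPM (transcript abundance relative to all transcripts of a library), was set beside the regions.

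Accessible regions are stretches of DNA that are not wrapped tightly in nucleosomes, and most of them are promoters or distal enhancers. Enhancers that serve the same gene often lie near each other, and genes with a cell-type role can be surrounded by many of them. Runx1 is a transcription factor with a Runt DNA-binding domain, and Runx2 is its close relative. Zeb1 and Zeb2 are repressors of epithelial genes that bind E-box sequences.

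The sequences below show members of long stretches in which every region closed, each being the middle 200 bases of the region with the most matches to TGTGGT, the core of the Runx site, on either strand. They are the plus strand of mm9, with the matches in capitals. The region of the run around Cxcl12 is chr6:117255706-117256302 and is intergenic, with its printed part at chr6:117255904-117256103, and it carries a Runx1 peak and a Runx2 peak in control cells. The region of the run around Bmper is chr9:22855853-22856092, with its printed part at chr9:22855873-22856072, and that of the run around Osr1 is chr12:9372754-9373204, with its printed part at chr12:9372879-9373078. Both are intergenic, and neither overlaps a Runx1 or Runx2 peak. Matches were in the middle 200 bases of 26.9% of the closing, 14.5% of the opening and 14.1% of the stable regions, and of 16.2% of all regions.
Cxcl12 stretch: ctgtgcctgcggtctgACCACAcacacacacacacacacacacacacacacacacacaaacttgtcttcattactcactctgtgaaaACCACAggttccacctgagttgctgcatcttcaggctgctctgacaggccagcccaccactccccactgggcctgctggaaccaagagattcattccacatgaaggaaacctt
Bmper stretch: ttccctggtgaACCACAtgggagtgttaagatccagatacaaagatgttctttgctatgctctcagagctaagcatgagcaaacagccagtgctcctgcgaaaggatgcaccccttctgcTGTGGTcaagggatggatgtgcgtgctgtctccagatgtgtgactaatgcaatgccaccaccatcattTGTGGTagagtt
Osr1 stretch: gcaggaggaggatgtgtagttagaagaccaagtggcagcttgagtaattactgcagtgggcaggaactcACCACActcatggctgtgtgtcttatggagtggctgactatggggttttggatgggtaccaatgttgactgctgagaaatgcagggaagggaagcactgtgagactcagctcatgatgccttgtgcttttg

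The next sequences show members of stretches in which every region opened. The stretches ranked 1, 2 and 10 by their number of regions were picked, and candidates were limited as above. Each sequence is the middle 200 bases of the candidate with the most matches to CAGGTA or CAGGTG, the E-boxes bound by Zeb proteins, on either strand. Matches are again in capitals on the plus strand of mm9. The region of the Paip1 run is chr13:120215335-120215619 and is intergenic, with its printed part at chr13:120215377-120215576. The region of the Tmem51 run is chr4:141602898-141603446 and lies in an intron, with its printed part at chr4:141603072-141603271. The region of the Kazn run is chr4:141827429-141828096 and is intergenic, with its printed part at chr4:141827663-141827862. Such a match was in 50.8% of the opening, 12% of the closing and 23.5% of the stable regions, and in 26.3% of all regions. A match to these letters is a description of the sequence and does not show that a factor binds there.
Paip1 stretch: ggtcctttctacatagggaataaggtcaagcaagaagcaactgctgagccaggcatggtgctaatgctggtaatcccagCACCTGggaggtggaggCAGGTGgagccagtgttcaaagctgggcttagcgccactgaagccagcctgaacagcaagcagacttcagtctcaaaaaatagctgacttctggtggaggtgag
Tmem51 stretch: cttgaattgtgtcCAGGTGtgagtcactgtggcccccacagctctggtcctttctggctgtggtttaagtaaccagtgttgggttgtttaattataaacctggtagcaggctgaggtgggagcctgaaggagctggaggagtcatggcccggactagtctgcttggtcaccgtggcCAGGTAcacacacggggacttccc
Kazn stretch: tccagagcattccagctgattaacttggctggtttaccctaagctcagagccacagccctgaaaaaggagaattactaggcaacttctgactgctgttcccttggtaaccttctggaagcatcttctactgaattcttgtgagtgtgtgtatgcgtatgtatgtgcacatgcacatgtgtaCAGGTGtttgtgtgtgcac

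The RNA-seq libraries of a group correlated at 0.994 to 0.995 over 13067 tested genes. In Runx1KO cells 1034 genes (7.91%) were higher and 666 (5.1%) lower by the limma test, at least 2-fold on the log2(TPM + 1) scale with an adjusted p below 0.05, and 11245 of the tested genes could be placed on mm9. Of these 11245 genes, 7.91% were higher and 5.26% lower, and these shares are the background for the counts of genes near regions given below. Runx1 RNA was 18.7, 15.6 and 17.9 TPM in the control and 30.3, 30.1 and 28.5 TPM in the Runx1KO libraries. This gene-level value sums over all exons and so does not test the removal of exon 3. Among 11 markers of metanephric mesenchyme, 7 had a mean of at least 1 TPM in control cells, among them Pax2, Osr1, Hoxa11 and Foxd1, while Six2, Wt1, Cited1 and Hoxd11 were at or near 0 in both groups. The markers of endothelium and blood summed to 4.8 to 6.7 TPM in control and 2.8 to 3.5 TPM in Runx1KO libraries over 7 genes. Kdr, Ptprc and Hbb-b1 were at 0 throughout, and most of the sum came from Cdh5 and Cd68. Cdh5 was 4.0, 2.8 and 4.4 TPM in control and 1.2, 1.2 and 1.0 TPM in Runx1KO libraries, and was lower by the limma test. Cd68 was 2.5, 1.9 and 2.1 TPM and then 2.2, 2.1 and 1.8 TPM. The markers of ureteric bud, the epithelium beside this mesenchyme, summed to 0.5 to 0.6 TPM in control and 1.4 to 1.6 TPM in Runx1KO libraries over 6 genes. Ret and Wnt9b were at 0 throughout, and Gata3 was 0.4, 0.5 and 0.4 TPM in control and 0.2 TPM in each Runx1KO library. Wnt11 was 0, 0.1 and 0.1 TPM in control and 1.2, 1.4 and 1.2 TPM in Runx1KO libraries, and was higher by the limma test.

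The balance of closing and opening regions was near even on most chromosomes and far from even on 5 of them. Closing regions made up 48.1% of all changing regions, and their share was between 43.3% and 54.5% on 15 of the 20 chromosomes. On chromosome 3 it was 70.0% (686 closing against 294 opening regions, Wilson 95% interval 67.1 to 72.8%), and on chromosome 19 it was 59.4% (55.4 to 63.3%). It was lowest on chromosome 12, at 27.9% (251 against 649 regions, 25.1 to 30.9%), and it was 34.1% on chromosome 11 (31.6 to 36.6%) and 35.1% on chromosome 16 (31.8 to 38.5%). The share of regions that changed at all varied less, from 28.1% on chromosome 15 to 39.5% on chromosome 12. These intervals, and the others given for shares of regions, cover counting only, and neighbouring regions are not independent of each other.

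The same 5 chromosomes stood apart in RNA. The median log2 fold change of their genes was -0.29 on chromosome 3 and -0.21 on chromosome 19, against -0.06 for all tested genes, and 0.11 on chromosome 11, 0.29 on chromosome 12 and 0.32 on chromosome 16. On the other 15 chromosomes the medians ran from -0.151 to -0.035. These 5 were set apart, after their values were seen, because their medians lay more than 0.1 from the median of all genes. A fold change above 0 was found for 24.5% of the 572 genes on chromosome 3 and 26.7% of those on chromosome 19. The share was 61.2% on chromosome 11, 75.9% of the 374 genes on chromosome 12 and 78.4% of the 334 genes on chromosome 16. On the other 15 chromosomes it ran from 34.1% on chromosome 1 to 46.3% on chromosome 4. The offset was not even along every chromosome, and on chromosome 11 it lay beyond 90 Mb, as described below. As deviations from each gene's mean over the 6 libraries, chromosome 3 medians were 0.111, 0.129 and 0.115 in the control and -0.122, -0.125 and -0.122 in the Runx1KO libraries. For chromosome 16 they were -0.179, -0.174 and -0.181 in the control and 0.184, 0.180 and 0.188 in the Runx1KO libraries. The libraries of the groups did not overlap on 17 of the 20 chromosomes, as was so for 73.7% of the tested genes taken singly, and an exact permutation test of 3 against 3 libraries cannot give a two-sided p below 0.1.

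Across the 20 chromosomes the closing share fell as the RNA median rose, with Pearson's r of -0.92 and Spearman's rho of -0.87. Without the 5 chromosomes named above, r was -0.65 and rho -0.71 over 15 chromosomes. All chromosomes share the same cells and libraries, so these correlations are descriptions. DNA copy number was not measured in the files analysed, and a different number of copies of a chromosome and a different accessibility or RNA level per copy cannot be told apart from these data. In windows of 10 Mb with at least 20 changing regions and 10 tested genes, of which there were 225, the closing share ran from 4.61% to 92.6% and r with the RNA median was -0.59. Over the 177 windows outside the 5 chromosomes r was -0.31.

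**Figure D1:**
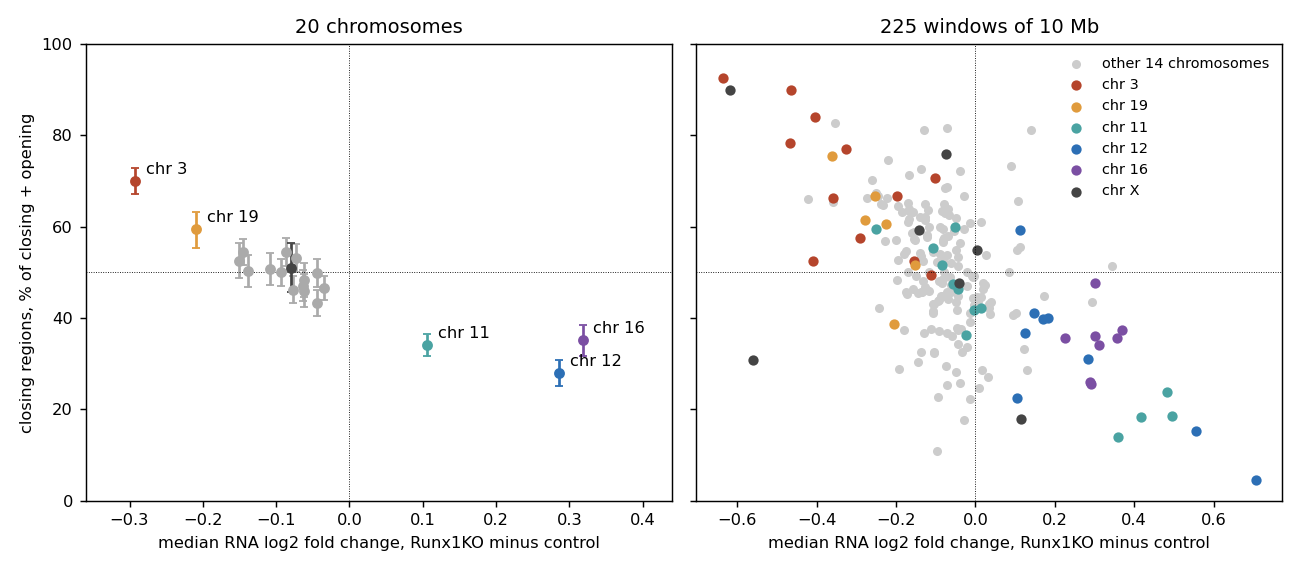
The vertical axis gives closing regions as a percentage of closing plus opening regions, with Wilson 95% intervals in the left panel, and the horizontal axis gives the median log2 fold change of the RNA of the tested genes there. Each point is a chromosome on the left and a 10 Mb window on the right, and chromosomes 3 and 19 lie at the upper left while chromosomes 11, 12 and 16 lie at the lower right.

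On some chromosomes the imbalance lay in a part of the chromosome, with limits chosen after the 10 Mb windows were seen. Chromosome 11 was even up to 90 Mb, with a closing share of 46.9% and an RNA median of -0.042 over 573 genes. From 90 Mb to its end at 121.8 Mb the closing share was 19.2% (119 closing against 501 opening regions, 16.3 to 22.5%), the RNA median was 0.422, and 85.8% of 388 genes had a fold change above 0. On chromosome 12 the closing share was 37.5% up to 90 Mb and 11% beyond it (36 against 291 regions, 8.06 to 14.9%), with RNA medians of 0.175 and 0.656. Of all regions in this last part of chromosome 12, 52.4% changed and 46.6% opened. On chromosome 3 the closing share was 59.4% up to 80 Mb and 74.4% beyond it, with RNA medians of -0.133 and -0.370.

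The end of the X chromosome did not show this pairing at first. From 140 Mb its RNA median was -0.618 over 72 genes and the closing share was 51.8% (59 closing against 55 opening regions). Regions in which more than 50% of the 31-base stretches occur elsewhere in the genome, where reads cannot be placed with certainty, made up most of the opening regions there. Without them 58 closing and 12 opening regions remained, a closing share of 82.9% (72.4 to 89.9%). Leaving out such regions moved the share on the X chromosome up to 140 Mb from 50.7% to 54.1% and on chromosome 12 up to 90 Mb from 37.5% to 36.4%. On chromosome 3 beyond 80 Mb and on chromosomes 11 and 12 beyond 90 Mb it left the shares at 74.4%, 19.2% and 11%.

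Opening regions were narrower than closing regions. Their median width was 505 bp (quartiles 369 and 711 bp), against 613 bp (458 and 818 bp) for closing and 624 bp (403 and 947 bp) for stable regions. The opening median was below the closing median on 20 of 20 chromosomes, where the opening medians ran from 470.5 to 545.5 bp and the closing medians from 586.0 to 644.0 bp. Under 400 bp were 31.3% of the opening, 15.3% of the closing and 24.5% of the stable regions. The stable class held a wide group at promoters, with a median of 997.5 bp there and 506 bp elsewhere. Away from promoters the closing regions were the widest class, with a median of 604 bp against 492 bp for opening regions.

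**Figure D2:**
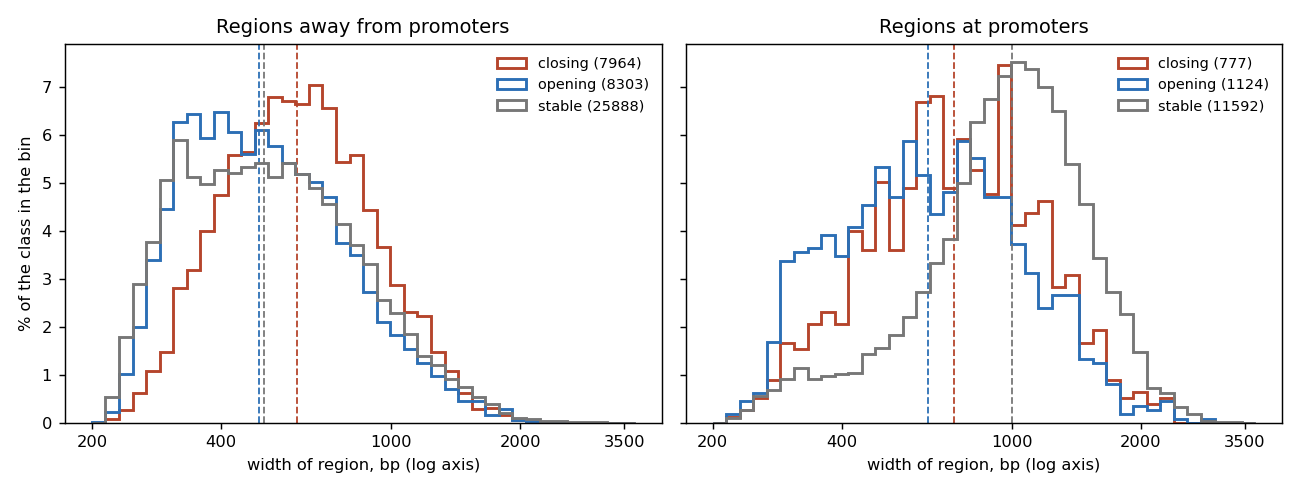
The horizontal axis gives region width in bp on a log scale and the vertical axis the percentage of each class in a bin, for regions away from promoters on the left and at promoters on the right, with the number of regions of each class in the legend. Dashed lines mark medians, which away from promoters are 604 bp for closing, 492 bp for opening and 506 bp for stable regions.

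Changing regions were mostly distal. A promoter, taken as a middle within 1 kb of an annotated transcription start, held 8.89% of closing (8.31 to 9.5%), 11.9% of opening (11.3 to 12.6%) and 30.9% of stable regions (30.5 to 31.4%). Of the 13493 regions at promoters 85.9% were stable, 8.33% opening and 5.76% closing. Introns held 45.7% of closing, 36.6% of opening and 30% of stable regions. Closing regions lay farthest from transcription starts, with a median distance of 18.2 kb against 11.1 kb for opening and 6.77 kb for stable regions, and 9.48% of them lay more than 100 kb from the nearest start against 4.61% of opening regions. Median GC content was 48.6% in closing, 51.0% in opening and 50.3% in stable regions away from promoters.

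Where all regions at a transcription start were of a changing class, the RNA of tested genes usually changed in the same direction. Where a stable region lay there too, the gene usually had no call. Of 227 tested genes with closing regions alone at the start, 167 (73.6%) were lower and 3 higher in Runx1KO cells. Of 406 genes with opening regions alone there, 292 (71.9%) were higher and 0 lower. Tested genes had at least 1 TPM in at least 3 libraries, so a gene could pass through the group in which it was high. For a gene that passed in this way alone the direction was fixed. Such genes are included in these counts and their number was not determined, so the counts are a description. With a stable region beside the changing one, 1 of 11 genes with a closing region was lower and 5 of 38 with an opening region were higher. Of 8626 genes with stable regions alone at the start, 2.56% were lower and 3.99% higher, and of 1937 genes with no listed region there 10.5% were lower and 12.7% higher.

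Regions of all classes followed each other at a median gap of 12224.5 bp (quartiles 4939 and 30582.5 bp), and the longest gap was 10.1 Mb. Density ran from 6.55 regions per Mb on the X chromosome to 35.3 per Mb on chromosome 11. Of 55628 pairs of next regions 64 overlapped, of which 42 were of the same class and 1 joined a closing and an opening region. A closing region lay at a median of 25.4 kb from the nearest other closing region and 85.0 kb from the nearest opening region. For opening regions the medians were 22.7 kb to their own class and 90.4 kb to the closing class. The nearest changing region was of the same class for 69.4% of closing and 71.4% of opening regions.

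Neighbouring regions tended to share their class. After a closing region the next region was closing in 34.1% of 8739 cases (33.1 to 35.1%), while the make-up of the chromosomes would give 16.2% and that of the 10 Mb windows 18.1%. After an opening region the next was opening in 27.6% of 9422 cases (26.7 to 28.5%), against 17.8% and 19.5% by make-up. Steps between the changing classes were rare, at 9.07% from closing to opening, where the make-up of the chromosomes gives 16.5%, and 8.27% from opening to closing, where it gives 15.3%. The share of the same class was above the make-up on 20 of 20 chromosomes for both classes. For closing regions it ran from 25.4% on chromosome 11 to 42.7% on chromosome 1, and for opening regions from 15.3% on chromosome 3 to 44.4% on chromosome 12.

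The share of the same class was highest at the shortest gaps for both classes. For closing regions it was 46.1% of 516 cases below 1 kb, 31.1% between 10 and 50 kb, 34.5% between 50 and 100 kb and 32.4% above 100 kb. For opening regions it was 43.6% of 769 cases below 1 kb, 23.3% between 10 and 50 kb, 18.8% between 50 and 100 kb and 23.1% above 100 kb. Counted in regions along the chromosome, the excess of the same class over the chromosome's make-up was 17.9 percentage points at 1 step, 6.48 at 5 steps, 3.7 at 10 steps and 1.48 at 20 steps for closing regions. For opening regions it was 9.86, 4.55, 2.79 and 1.86 percentage points. At 50 and 100 steps the excess was 1.02 and 0.293 points for closing and 0.663 and 0.981 points for opening regions.

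**Figure D3:**
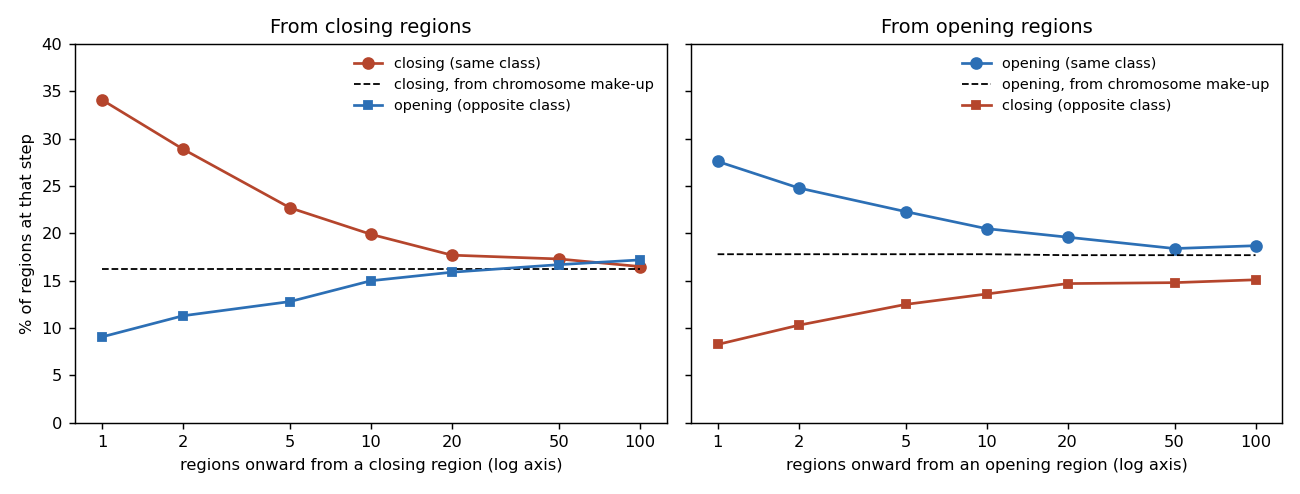
The horizontal axis counts regions onward from a closing region (left) or an opening region (right) on a log scale, and the vertical axis gives the percentage of regions at that step in the same class (circles) and in the opposite class (squares), with the make-up of the chromosomes as a dashed line. The same-class share starts at 34.1% and 27.6% and nears the dashed line by 50 steps, while the opposite class starts at 9.07% and 8.27%.

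Many changing regions lay in small groups, since another region of the same class was within 10 kb of 31.2% of closing (30.2 to 32.2%) and 33.3% of opening regions (32.3 to 34.2%). A region of the opposite class lay within 10 kb of 9.53% of closing and 9.08% of opening regions. The closing groups numbered 1197 with 2726 regions and the opening groups 1327 with 3135 regions, and their median spans were 6.36 and 6.43 kb. Groups of 5 or more regions were few, at 17 closing and 30 opening ones, and 8 and 13 of them lay on the 5 chromosomes with an RNA offset. The largest closing group held 7 regions in 28.5 kb at chr3:136094832-136123289, and the nearest tested gene start, that of Ppp3ca, the catalytic subunit of the phosphatase calcineurin, was 210 kb away. The largest opening group held 10 regions in 46.0 kb at chr12:114415358-114461349, around the start of Tmem121, whose RNA was at most 0.3 TPM in any library. The start of Crip1 was 25.1 kb from it, and its RNA was 6.5, 8.1 and 8.5 TPM in the control and 31.3, 37.3 and 36.2 TPM in the Runx1KO libraries, a log2 difference of 2.05 ± 0.10 (SE, n = 3 libraries per group, adjusted p = 3.29e-06). In a second TPM table, of these 6 libraries alone, the Crip1 difference was 3.65.

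Mixed neighbourhoods were still common at larger scales. When regions of any class were joined at gaps up to 10 kb, 11764 groups of at least 2 regions formed, of which 36.8% were all stable, 19.1% closing and stable, 27.7% opening and stable, and 7.9% held both changing classes. Only closing regions made up 4.83% and only opening regions 3.69%. Of 1789 windows of 1 Mb with at least 5 regions, 1394 held both changing classes, 190 closing without opening, 175 opening without closing, and 30 neither. At least 5 closing and 0 opening regions were in 74 windows, and at least 5 opening and 0 closing regions in 44. Across these windows the number of opening regions followed that of stable regions with a Spearman's rho of 0.67, that of closing regions followed it with 0.43, and closing and opening numbers had a rho of 0.2. Windows share the density of genes along the genome, so these values are descriptions.

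Some changing regions lay in long runs, in which regions of a single class follow each other with no region of another class between. Closing regions formed 5761 runs, of which 297 had at least 4 regions and held 19.2% of the class, and opening regions formed 6825 runs, of which 216 had at least 4 regions and held 11.9% of the class. Runs of at least 10 regions numbered 25 for closing and 11 for opening regions, and the longest had 26 and 21 regions. The median span of runs of at least 4 regions was 93.2 kb for closing and 46.3 kb for opening runs. In closing runs of at least 10 regions 25.8% of the 333 regions had a Runx match and 6.01% a Runx1 peak of control cells, compared with 26.9% and 11.8% of all closing regions. In opening runs of that length 26% of the 154 regions had a Zeb match and 20.8% were mostly repeated sequence, compared with 50.8% and 2.69% of all opening regions.

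The longer the run, the more often a gene starting in it or within 10 kb of it had changed RNA. Of the 1865 listed genes at closing runs of any length 279 (15%) were lower when genes were fitted with no filter on low values, and the share was 31.2% of 253 genes at runs of at least 4 regions and 45.7% of 35 genes at runs of at least 10. Of the 2908 listed genes at opening runs 18.4% were higher, and the share was 32.9% of 231 genes at runs of at least 4 and 48% of 25 genes at runs of at least 10 regions. Over all 20422 listed genes with a position 2.95% were lower and 4.39% higher. Genes at long runs with no call include many that had little or no RNA in either group.

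Among the genes that passed the filter the shares were higher. At runs of at least 4 regions 78 of 105 tested genes (74.3%) were lower and 1 higher for closing runs, and 76 of 126 (60.3%) were higher and 1 lower for opening runs, against 5.26% lower and 7.91% higher of all placed tested genes. With no filter these were 79 of 183 fitted genes (43.2%) and 76 of 189 (40.2%). At runs of at least 10 regions 15 of 15 tested genes were lower and 12 of 14 higher. The higher genes came from few places. Among them, Gm10439, Gm15080, Gm15107, Gm15114 and Gm15127 lie at the runs of repeated sequence on the X chromosome described below. Nnt, Paip1 and 4833420G17Rik share a single run on chromosome 13. A gene could pass the filter through the group in which it was high. No Runx1KO library reached 1 TPM for 57 of the 105 genes at closing runs and 12 of the 15 at the longest ones. No control library reached 1 TPM for 43 of the 126 genes at opening runs and 4 of the 14 at the longest ones. For such genes the direction was fixed by the filter, so the counts over tested genes are a description. Without the 5 chromosomes with an RNA offset, the counts at runs of at least 4 regions were 66 lower of 80 tested genes (82.5%) and 52 higher of 78 (66.7%).

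**Figure D4:**
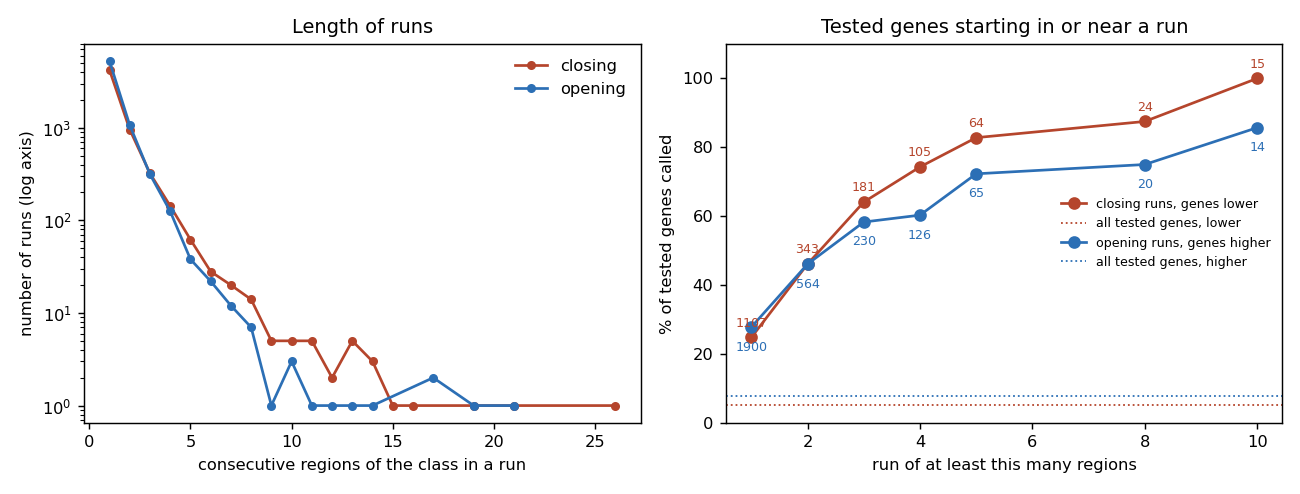
The left panel gives the number of runs (log axis) against the number of consecutive regions in a run. The right panel gives the percentage of tested genes that were lower at closing runs or higher at opening runs, against the least length of the run. The number of genes stands beside each point, and dotted lines mark all placed tested genes. Among tested genes, which passed a filter on low values, the share rises from 24.8% of 1107 to 15 of 15 genes for closing runs and from 27.8% of 1900 to 12 of 14 genes for opening runs.

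Of the 10 longest closing runs, 8 held a gene that was lower in Runx1KO cells, while other genes in or beside them had no RNA in either group or did not change. Of all placed tested genes 5.26% were lower. The run of 21 regions at chr9:22639373-23499416 covers the start of Bmper, a secreted modulator of bone morphogenetic proteins. Bmper RNA was 7.4, 6.1 and 6.5 TPM in the control and listed at 0 in all Runx1KO libraries (adjusted p = 2.22e-07). The run of 19 regions at chr12:9294019-10336667 spans 1043 kb around Osr1, a transcription factor of early kidney development. Osr1 fell from 70.9, 64.1 and 64.3 TPM to 0.3, 0.5 and 0.4 TPM, a log2 difference of -5.59 ± 0.072 (SE, adjusted p = 6.95e-09), on a chromosome where 75.9% of the genes had a fold change above 0. The run of 16 regions at chr7:84931663-85848009 holds the start of Ntrk3, a neurotrophin receptor. Ntrk3 fell from 16.9, 18.5 and 19.3 TPM to 0.1, 0 and 0 TPM (log2 difference -4.22 ± 0.078, adjusted p = 2.53e-08, and -7.18 with a pseudocount of 0.1 TPM). No control library overlapped a Runx1KO library for Bmper, Osr1 or Ntrk3, as was so for 73.7% of all tested genes. None of them had a Runx1KO library at 1 TPM, so they passed the filter through the control group and their direction was fixed.

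Tnc, which encodes the extracellular matrix protein tenascin C, lies with a run of 13 regions at chr4:63413669-63985861, and its RNA was 89.4, 80.8 and 89.8 TPM in the control and 1.3, 1.1 and 1.0 TPM in the Runx1KO libraries (log2 difference -5.36 ± 0.07, adjusted p = 7.1e-09). Plcb1 and Plcb4, which encode phospholipases C that act below G-protein-coupled receptors, share a run of 14 regions at chr2:134611631-135814559. Plcb1 was 8.7, 7.8 and 8.5 TPM in control and listed at 0 in Runx1KO libraries, and Plcb4 was 3.8, 3.8 and 4.0 TPM and then 0.1, 0 and 0 TPM. Sh3kbp1, an adaptor in receptor endocytosis, has a run of 13 regions at chrX:156064152-156392237, 4 of them at promoters, and fell from 18.9, 18.7 and 18.6 TPM to 1.7, 1.6 and 1.7 TPM. Pard3b, a cell polarity gene, was 5.2, 4.0 and 4.7 TPM in the control and listed at 0 in Runx1KO libraries, and Epha7, an ephrin receptor, went from 4.8, 5.0 and 4.9 TPM to 1.3, 1.3 and 1.4 TPM, with runs of 15 and 14 regions. Each of these genes was lower by the limma test, with adjusted p from 7.1e-09 to 2.32e-06. Plcb1, Plcb4 and Pard3b had no Runx1KO library at 1 TPM, so the filter fixed their direction.

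The longest closing run of all held no gene with enough RNA to be tested. Its 26 regions lie at chr6:116669917-117603444, over 933.5 kb. The genes starting in it or within 10 kb are Tmem72 and Cxcl12, which encodes a chemokine, and both were listed at 0 in all 6 libraries. None of these regions was at a promoter, 5 had a Runx match and 1 a Runx1 peak of control cells. The nearest tested genes outside it, Zfp422 and Zfp637, had log2 differences of -0.65 and -0.05 and were not called. A run of 14 regions at chr4:55555580-56432773 begins 10.2 kb from the start of Klf4, a transcription factor with zinc fingers. Klf4 was 76.0, 80.3 and 72.0 TPM in the control and 77.6, 82.6 and 71.3 TPM in the Runx1KO libraries, a difference of 0.02 ± 0.062 on the log2 scale (adjusted p = 0.804).

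The longest opening run lay at the very end of chromosome 13. Its 21 regions, at chr13:120057921-120257496, fill 199.6 kb, and after the last closing region of the chromosome, which ends at position 119814967, 30 of the 32 remaining regions opened and 2 were stable. All 4 tested genes beyond that point were higher. Nnt, a mitochondrial transhydrogenase, was 33.3, 30.6 and 32.6 TPM in the control and 240.6, 242.0 and 247.4 TPM in the Runx1KO libraries. Paip1, a partner of the poly(A)-binding protein, was 38.8, 40.4 and 40.8 TPM and then 396.6, 398.8 and 413.3 TPM. 4833420G17Rik went from 8.3, 8.2 and 7.9 TPM to 89.7, 87.6 and 93.0 TPM. Their log2 differences were 2.88 ± 0.037, 3.30 ± 0.031 and 3.32 ± 0.039 (adjusted p = 6.95e-09, 2.26e-09 and 4.74e-09), and 3110070M22Rik, 19.7 kb beyond the run, had 3.11 ± 0.091, which was 1.80 in the table of these 6 libraries alone. The next tested gene on the other side, Mrps30, which encodes a mitochondrial ribosomal protein and starts 882 kb before the run, went from 127.1, 131.0 and 128.9 TPM to 324.9, 321.3 and 319.6 TPM. None of the 21 regions was mostly repeated sequence and 0 had a Runx1 peak. Unlike the other long opening runs with called genes outside repeated sequence, this one covers genes that control cells already expressed. Copy number was not measured there either.

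Runs on chromosome 4 surrounded genes that control cells did not express. A run of 19 regions at chr4:141442395-141641504 covers Tmem51, which encodes a membrane protein, and 4930455G09Rik. Tmem51 was listed at 0 in all control libraries and at 29.1, 31.5 and 29 TPM in the Runx1KO libraries, and 4930455G09Rik at 0 and then 23.2, 20.6 and 20.2 TPM. A run of 10 regions at chr4:141787358-142461581 begins 147 kb from the start of Tmem51 and covers the start of Kazn, which encodes kazrin, a protein of epithelial desmosomes. Kazn was 0.2 TPM in each control library and 3.7, 4.4 and 4.5 TPM in the Runx1KO libraries (log2 difference 2.11 ± 0.09, adjusted p = 1.28e-06, and 3.84 with a pseudocount of 0.1 TPM). The tested genes on either side of this stretch were not called, with log2 differences of 0.60 for Efhd2 and -0.18 for Prdm2. The 250 kb on both sides of the first run held 16 opening, 18 stable and 0 closing regions.

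A pair of long opening runs lay in repeated sequence on the X chromosome. The runs of 17 and 14 regions at chrX:145307115-146029389 and chrX:144427277-145098433 consisted of repeated sequence in 17 of 17 and 14 of 14 regions. The 5 tested genes there, Gm10439, Gm15080, Gm15107, Gm15114 and Gm15127, were higher by 1.57 to 3.67 on the log2 scale, and the lowest of these, Gm15127, was higher by 4.22 in the table of these 6 libraries alone. Gm10439 was 2.6, 2.5 and 1.7 TPM in the control and 42.0, 39.5 and 39.1 TPM in the Runx1KO libraries. Since the copies are alike, reads from them match several places, and neither the regions nor the genes can be assigned to a single copy. Luzp4, which starts between the runs, was 4.2, 4.1 and 3.8 TPM and then 44.5, 47.8 and 48.3 TPM.

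The remaining long opening runs had no called gene in them or within 10 kb. At the run of 17 regions at chr6:112147516-112445517, Lmcd1 was 11.3, 8.7 and 12.5 TPM in the control and 6.8, 7.3 and 6.5 TPM in the Runx1KO libraries (log2 difference -0.58 ± 0.12, adjusted p = 0.0042), which is opposite in sign to the regions and below the 2-fold limit. Nrip1, a nuclear receptor corepressor 80 kb from a run of 13 regions on chromosome 16, had 0.73, where the chromosome's median was 0.318. Degs2 on chromosome 12 had 0.50. The median was 0.286 over that chromosome and 0.656 over its part beyond 90 Mb, in which Degs2 lies. Nccrp1, Sycn, Skint11 and Mir342, beside runs on chromosomes 7, 4 and 12, were at or below 0.4 TPM in all libraries.

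**Figure D5:**
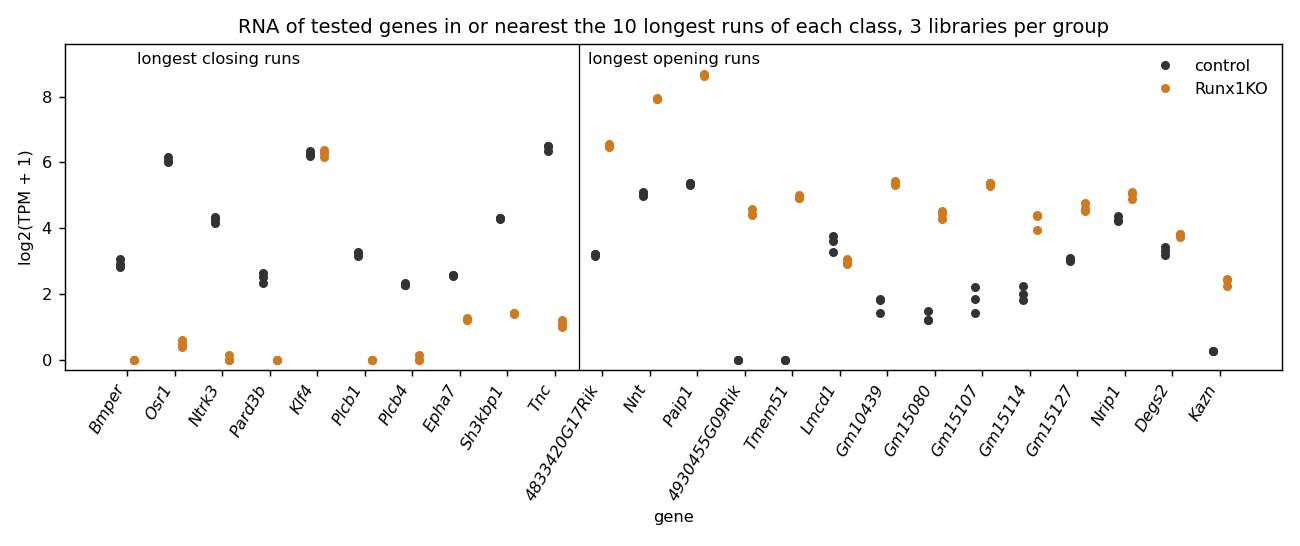
Each point is the log2(TPM + 1) of a gene in a library, with control libraries in black and Runx1KO libraries in orange, for the tested genes in or nearest the 10 longest closing runs (left of the line) and the 10 longest opening runs (right). Of the closing genes, Klf4 alone shows overlapping groups, and of the opening genes Lmcd1 alone is lower in the Runx1KO libraries.

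The genes that the study discusses, which it picked with these samples, had 29 closing, 34 opening and 81 stable regions within 100 kb of their starts. Within 100 kb of the start of Zeb2 lay 6 closing, 0 opening and 1 stable region, and around Zeb1 there were 4, 0 and 2. Closing regions sat at both starts, and Zeb1 fell from 15.1, 14.2 and 15.6 TPM to 0.1, 0.2 and 0.2 TPM while Zeb2 fell from 5.5, 4.9 and 5.2 TPM to 0.2 TPM in each library. Gdnf, the growth factor by which this mesenchyme calls in the ureteric bud, had 7 closing, 0 opening and 3 stable regions, and its nearest opening region was 1080 kb away. Gdnf RNA went from 13.1, 11.4 and 13.6 TPM to 0.1 TPM in each Runx1KO library. Pak3, a kinase of the cytoskeleton, had 2 closing, 0 opening and 1 stable region.

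Of the genes discussed by the study that were higher in Runx1KO cells, most had more opening than closing regions, beside many stable ones. Grhl2, a transcription factor of epithelial genes, had 0 closing, 8 opening and 8 stable regions, an opening region at its start, and RNA of 0.1 TPM in each control library and 5.0, 5.0 and 4.9 TPM in the Runx1KO libraries. Pard6b, a polarity gene, had 1 closing, 8 opening and 15 stable regions and a stable region at its start, and it rose from 25.7, 23.4 and 24.0 TPM to 194.0, 183.2 and 197.1 TPM. Cldn4, a tight junction claudin, had 0, 7 and 8 regions and Itgb4, an integrin of hemidesmosomes, 0, 3 and 11, each with an opening region at the start. Ovol1, a transcription factor of epithelia, had 1, 5 and 18 regions and a log2 difference of 1.22, which was 0.87 and not called in the table of these 6 libraries alone. Cgn, which encodes the junction protein cingulin, was higher with even numbers, at 2 closing, 2 opening and 6 stable regions. Runx1 itself had 2 closing, 1 opening and 4 stable regions and Runx2 2, 0 and 4, and neither was called, with log2 differences of 0.74 ± 0.068 and -0.45 ± 0.078.

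Most epithelial genes had more opening than closing regions around them, and mesenchymal genes were divided. Within 100 kb of the starts of 30 epithelial genes lay 28 closing, 143 opening and 312 stable regions, summed over genes. A region near the starts of more than 1 of these genes was counted for each, so the number of distinct regions is lower. Of the 30 genes 26 (86.7%) had more opening than closing regions, compared with 47.4% of all placed tested genes. The 30 genes themselves were not filtered by their RNA. Of the 17 tested epithelial genes 14 were higher and 0 lower, against 7.91% higher and 5.26% lower of all placed tested genes. The other 13 had too little RNA to be tested, so the list did not rise as a whole. Among them Epcam and Ovol2 were at 0 in all libraries. Cdh1 was at most 0.3 TPM in any library with 6 opening regions nearby, and Cldn3 at most 0.1 TPM with 7. Cldn6 (1.2, 1.3 and 0.5 TPM), Ap1m2 (0.8, 0.7 and 0.5 TPM) and St14 (0.3, 0.5 and 0.5 TPM) were higher in the Runx1KO libraries than in any control library. Krt18, Krt19, Cldn4, Esrp1, Grhl2, Pkp3 and Lsr had no control library at 1 TPM, so the filter fixed their direction. Krt8, an epithelial keratin, had 0 closing, 7 opening and 13 stable regions and went from 1.8, 1.9 and 3.6 TPM to 2302.3, 2393.5 and 2362.3 TPM. Dsp, which encodes desmoplakin, had 0 closing and 5 opening regions but no RNA above 0.1 TPM in any library, and Ehf had 8 closing and 4 opening regions and was higher by 1.16, though by 0.85 and not called in the table of these 6 libraries alone. Around 30 mesenchymal genes, summed in the same way, lay 52 closing, 43 opening and 144 stable regions. Of these genes 13 (43.3%, compared with 27.7% of all placed tested genes) had more closing and 11 more opening regions. Of the 19 tested mesenchymal genes 10 were lower and 0 higher. Zeb1, Zeb2, Col3a1, Postn and Acta2 had no Runx1KO library at 1 TPM, so the filter fixed their direction. Col6a1, a collagen, had 5 closing, 0 opening and 4 stable regions and fell from 324.2, 332.7 and 334.5 TPM to 32.4, 31.8 and 31.8 TPM. Vim, the mesenchymal intermediate filament, had 1 closing and 3 opening regions and 2748.8 to 2887.0 TPM in the control and 2782.2 to 2844.7 TPM in the Runx1KO libraries. Among the metanephric mesenchyme genes, Hoxa11 had 5 closing and 0 opening regions with 212.4, 217.4 and 212.5 TPM and then 209.2, 210.5 and 216.6 TPM, so closing regions nearby did not go with a change of its RNA.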

How the data were processed

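ATAC-seq, ChIP-seq and RNA-seq were done on mK4 cells, with 3 samples in each group. Reads were trimmed by the authors (Trim Galore) and mapped to mm9, ATAC-seq duplicates were removed, and MACS2 called broad peaks. Peaks found in at least 2 of 3 ATAC-seq replicates were divided into the 3 lists by a 2-fold change. The deposited lists also hold the authors' fold changes and their significance, which were not used, and no count or depth per ATAC-seq library, so the depth behind a region is unknown. Coordinates were used as 1-based mm9 positions, none lay beyond the NCBIM37 chromosome ends, and 1 stable region on the mitochondrial genome was left out of the positional counts, leaving 37480. Promoters, introns and gene starts came from GENCODE annotation of that build.

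The TPM values were made by the authors from featureCounts 1.6.2 counts, and were deposited rounded to 1 decimal. The paper states that reads matching several places were counted for peaks, and it gives no such setting for genes. Each library sums to 999990 to 999998 TPM, so depth cannot be read from it. Of 24953 listed genes, the 13067 with at least 1 TPM in at least 3 libraries were tested on log2(TPM + 1) with limma 3.58.1 in R 4.3.3 (trend, two-sided, Benjamini-Hochberg over all tested genes). Fold changes on this scale understate those of low genes. A gene was called at an adjusted p below 0.05 and a log2 difference beyond 1 either way. A limma test replaces the authors' count-based test because the files hold TPM. The 3 columns of another genotype in the same table were not used. In the labels each of the 6 libraries carries a number of its own, which could name a clone or a culture and is not explained, so p-values measure the spread between these libraries, which may be technical.

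A run is a stretch of consecutive regions of 1 class with no other class between, and genes were assigned to it when they start in it or within 10 kb. Shares of neighbours were set beside the make-up of the same chromosome or 10 Mb window, which includes the region itself. Repeated sequence was measured as the share of 31-base stretches found elsewhere in the genome. Intervals are Wilson 95% intervals. The named genes were those at the 10 longest runs of each class, the nearest gene where a run has none, the genes that the study discusses, and up to 4 examples from each gene list. Genes outside these rules (Luzp4, Mrps30, Efhd2 and other neighbours of runs, and genes near the largest groups) were named after their values were seen. The members and gene lists were chosen with earlier results of these data known. The fits were tested on simulated data. Alternatives covered the merging of close regions, gap and promoter limits, run length, the pseudocount, the filter, the second TPM table, the replicate block and leaving out each library.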

Additional observations from a re-analysis of the deposited data

How the results depend on the processing

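The same-class share after a closing region (34.1%) was 32.2% with regions of a class under 1 kb apart merged, 64.7% with stable regions left out, against a make-up of 49.8%, and 35.6% with promoters left out. After an opening region (27.6%) it was 24.9% merged, 28.6% within 50 kb, 67.3% without stable regions, against a make-up of 53.5%, 30% without promoters and 26.1% without chromosomes 3, 11, 12, 16 and 19. All of these stayed above the make-up of their chromosomes. The share with a region of the same class nearby was, for closing regions, 19.4% at 5 kb, 49.5% at 25 kb, 64.0% at 50 kb and 27.4% merged, and for opening regions 21.1%, 52.1%, 67% and 28.6%, and 31.7% without those 5 chromosomes. Median widths were 624 bp merged and 604 bp without promoters for closing, 516 and 492 bp for opening, and 654 and 506 bp for stable regions. Promoter shares at 500 bp, 2500 bp and for protein-coding genes were 6.83%, 14.3% and 7.42% for closing, 8.98%, 19.4% and 10.2% for opening, and 28.0%, 37.3% and 29.2% for stable regions. Of the genes at opening runs, 134 were higher at runs of at least 3 regions and 47 at runs of at least 5. The last settings change the definition of a run, and so the number of genes counted.

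The other 61 of 95 alternative values stayed within the interval of the value reported or, for a count of genes, within 1.5 times it. With each library left out in turn, 1018 to 1041 genes were higher and 660 to 681 lower, and 78 to 79 genes were lower at closing runs and 75 to 78 higher at opening runs. With a pseudocount of 0.1 TPM 1201 genes were higher and 822 lower. In the second TPM table, of these 6 libraries alone, 934 were higher and 618 lower, and Cdh5 (-0.85), Ehf (0.85) and Ovol1 (0.87) were no longer called. Of 1171 values for 118 named genes under alternatives, 1168 kept their call and 0 reversed. Leaving out chromosomes or repeated sequence was chosen after seeing the data.

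Same-numbered control and Runx1KO libraries deviated together with correlations of -0.053, 0.014 and 0.002, so the numbers do not pair them, and none of the 3 pairs passed 0.1. With the replicate block 1040 genes were higher and 669 lower, and 78 genes were lower at closing runs and 76 higher at opening runs.

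The lists give no values per ATAC-seq replicate, so the error of a region's class is not known here, and regions beside each other are not independent. The classes rest on the authors' peak calls and 2-fold limit. Clones, copy number and genotype cannot be told apart, and regions and genes in repeated sequence cannot be assigned to a single copy.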
